A study of Mus musculus with 9 samples.

Results

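Astrocytes and oligodendrocyte precursor cells (OPC), the 2 glial types of the study, were compared together with neurons of the dorsal root ganglion (DRG). On the log2 scale the glial side was the mean of the astrocyte and OPC estimates, each with equal weight, and all 9 libraries of the series entered. A gene was counted as shared by both glial types when its adjusted p was under 0.05 (edgeR quasi-likelihood test, Benjamini-Hochberg) and all 6 glial libraries lay on the same side of all 3 DRG libraries. Of 14848 genes tested, 6172 met this rule. Without the condition on libraries, 9093 (61.2%) passed in either direction. In 3163 of the 6172 genes, 21.3% of the genes tested, every glial library was above every DRG library, and in 3009, 20.3%, every glial library was below.

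The libraries were poly(A) RNA-seq of mouse primary cultures, 3 biological replicates of each cell type. Astrocytes came from the cortex of pups of either sex at postnatal day 1 to 3 and grew for about 21 days to confluence. OPC came from the cortex of pups of either sex at postnatal day 6 to 9 and were kept for 6 to 7 days. DRG neurons came from the dorsal root ganglia of embryos at E13.5 and were kept for about 2 weeks. No transgene or treatment is given for any group. Donor age and culture time differ with each cell type, and the glial types share the cortex while the neurons come from the peripheral nervous system, so glial against neuronal identity, central against peripheral origin and time in culture cannot be told apart here.

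Gene counts ran from 30710093 to 53594210 per library, and levels are given as counts per 1000000 (CPM) after TMM scaling, in the order of replicates 1, 2 and 3. CPM is not divided by transcript length. Over log2 CPM, replicates of 1 type correlated at 0.932 to 0.987, astrocyte with OPC libraries at 0.74 to 0.83, OPC with DRG at 0.741 to 0.765 and astrocytes with DRG at 0.631 to 0.718. Astrocytes replicate 1 with OPC spanned 0.74 to 0.748, which overlaps the range of DRG with OPC. Most markers followed the labels. By the test, 7 of 11 astrocyte markers were lower in OPC than in astrocytes, 8 of 10 OPC markers were higher, and the others did not pass. Over all 14848 genes 3786 were lower in OPC and 3903 higher. Against DRG, all 6 glial libraries were lower for 9 of 10 pan-neuronal markers and higher for Map2. The astrocyte marker S100b and the OPC marker Lhfpl3 were lower than DRG in all 6 glial libraries. The 10 pan-neuronal markers tested summed to 53310, 29420 and 33380 CPM in DRG against 442.7 to 569.7 in the glial libraries, Gfap and Aqp4 were highest in the 3 astrocyte libraries, and Pdgfra and Olig2 in the 3 OPC libraries. In bulk RNA, fewer cells of a kind and less RNA per cell cannot be told apart.

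Astrocytes and OPC both descend from the ventricular zone of the forebrain, keep transcription factors of the neural progenitor and can divide after birth. DRG neurons descend from the neural crest, leave the cell cycle in the embryo and carry sensory signals along long axons. In cells other than neurons, the repressor REST and the splicing factor PTBP1 hold back neuronal genes and neuronal exons, and the chromatin remodeler BAF exchanges subunits as progenitors become neurons.

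By the test alone, 4767 of the 14848 genes were higher in the glia (32.1%) and 4326 were lower (29.1%), with a median log2 difference over all genes of 0.13. The 3163 shared higher genes had a median log2 difference of 1.98 (quartiles 1.21 and 3.37), and 2650 of them (17.8% of genes tested) were at least 2-fold higher. The 3009 shared lower genes had a median of -2.42 (quartiles -4.49 and -1.34), with 2588 (17.4%) at least 2-fold lower. At 8-fold or more in each glial type on its own there were 671 higher and 871 lower genes. The remaining 1604 higher genes passed on the mean of the glial types while 1 or more glial libraries overlapped DRG, and in 349 of these 1 glial type lay on the opposite side. Without Astrocytes replicate 1 and OPC replicate 3, which stand apart in cell cycle, microglial or respiratory genes given below, the shared counts were 3336 and 4097.

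**Figure D1:**
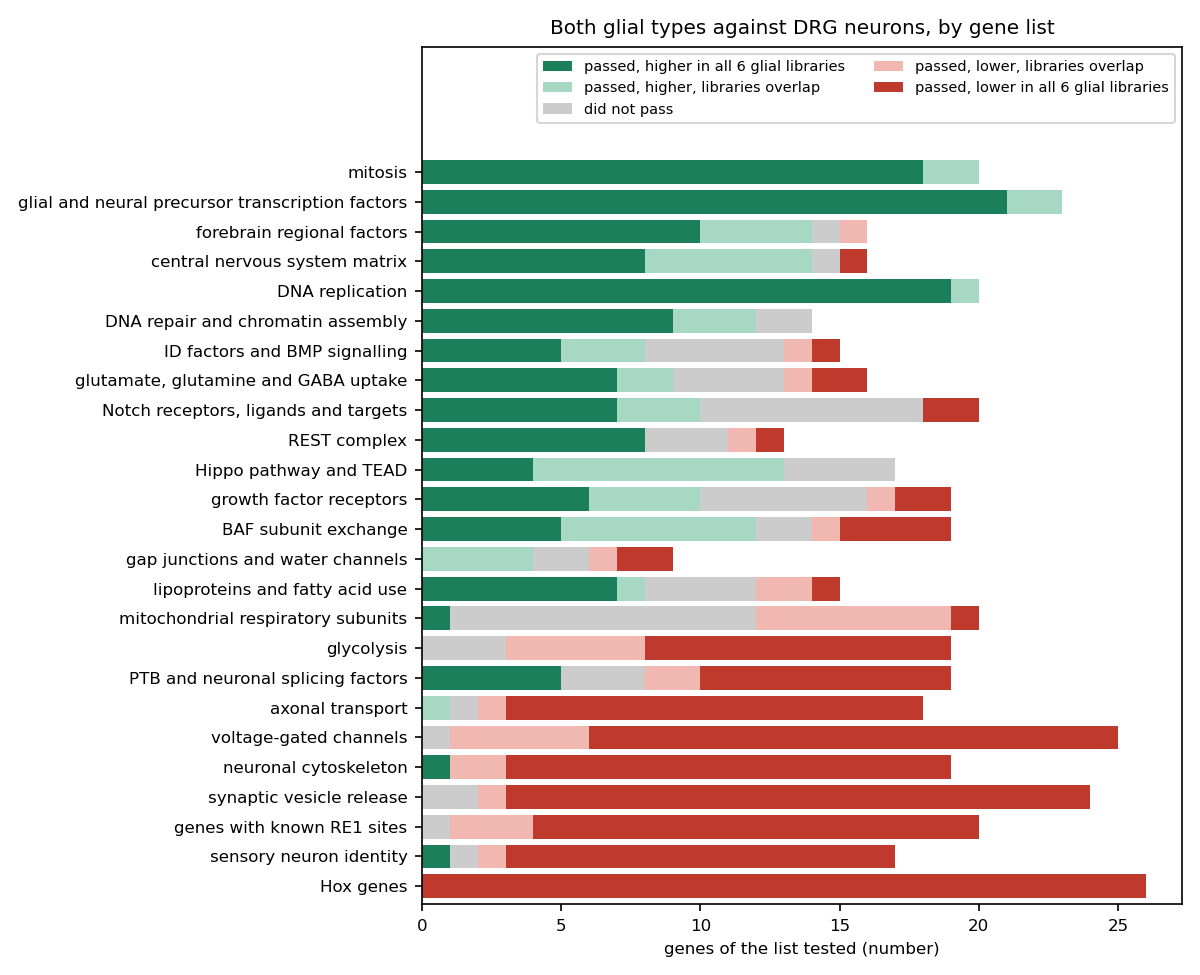
Members of 25 gene lists by outcome of the comparison of both glial types with DRG neurons; each bar is 1 list, its length is the number of genes tested, dark green and dark red are genes that passed with all 6 glial libraries above or below all 3 DRG libraries, pale colours passed with overlapping libraries and grey did not pass. Replication, mitosis and precursor factor lists are green throughout, neuronal lists are mostly red, and signalling, BAF and lipid lists hold both colours.

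The 15 shared higher genes with the largest difference in the glial type where it was smaller, among genes of at least 10 CPM in each glial type, held transcription factors of neural progenitors, among them Sox21, Sox1, Nr2e1, Olig1 and Pou3f3, and the zinc finger factor Sall3. Sox21 read 88.7, 55.8 and 81.5 CPM in the astrocyte libraries, 49.1, 41.4 and 36.4 in the OPC libraries and 0, 0.021 and 0 in the DRG libraries. With 1 read in all DRG libraries together, its ratio was 8820 (95% counting interval 1583 to 348400) for astrocytes and 4906 (95% counting interval 880.3 to 193800) for OPC, with intervals that cover counting error only (adjusted p = 3.34e-07 for the glial mean). Sox21 is an HMG-box repressor that acts beside the Sox1 to Sox3 group, and every glial library lay far above every DRG library.

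Nr2e1, the orphan receptor Tlx that keeps neural stem cells dividing, stood at 0.0338, 0.0421 and 0.0258 CPM in DRG, 114, 95 and 141 in astrocytes and 28.8, 36.5 and 27.8 in OPC, a log2 difference of 10.65 ± 0.34 (SE), adjusted p = 1.11e-07. The levels of Nr2e1 were higher in astrocytes than in OPC, and no glial library overlapped DRG. Pou3f3 was at 132, 169.8 and 174 CPM in astrocytes, 187, 211 and 189 in OPC and 0.102, 0.253 and 0.387 in DRG, with a log2 difference of 9.42 ± 0.38 (SE), adjusted p = 3.15e-07. Beside it on the chromosome lie the long noncoding RNAs Pantr1 and 2900092D14Rik, whose log2 differences were 9.77 ± 0.57 (SE) and 9.73 ± 0.46 (SE; 10.40 without DRG replicate 3).

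The others of the 15 were mostly membrane, secreted or mitotic genes. Gpr37l1, a G protein-coupled receptor of glia, read 101, 81.4 and 55.2 CPM in astrocytes, 495, 159 and 231 in OPC and 0.102, 0.126 and 0.103 in DRG (log2 difference 10.38 ± 0.61 (SE), adjusted p = 1.50e-06). Ramp1, which with the calcitonin receptor-like receptor forms the receptor for the peptide CGRP, was at 38.9, 37.2 and 39.1 CPM in astrocytes, 85.4, 68.7 and 139 in OPC and 0, 0.021 and 0.0775 in DRG (10.68 ± 0.56 (SE), adjusted p = 9.02e-07). The CGRP precursor gene Calca showed the opposite pattern, with 75.6, 102 and 159.9 CPM in DRG, 0.395, 3.44 and 5.09 in astrocytes and 0.358, 1.22 and 1.44 in OPC (log2 difference -6.02 ± 0.68 (SE), adjusted p = 6.65e-05). Scrg1, C1ql1, Sall3, Gpm6a and the mitotic kinase Pbk completed the group, with log2 differences of 10.47, 9.15, 10.48, 10.16 and 9.81. Leaving out 1 library moved some of these differences by over 1.5 times: Sox21 to 14.21, Olig1 to 11.44 and Gpm6a to 9.46 without DRG replicate 2, Pbk to 11 and Gpm6a to 13.55 without DRG replicate 1 and Ramp1 to 11.92 without DRG replicate 3.

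At the other end, the 15 shared lower genes named by the same rule in DRG were sensory neuron genes, Hox genes and genes of unassigned role. Prdm12, a zinc finger factor needed for pain-sensing neurons, was at 474, 471 and 500.4 CPM in DRG, 0.0188, 0.641 and 0 in astrocytes and 0, 0.285 and 0.144 in OPC (log2 difference -11.38 ± 0.88 (SE), adjusted p = 6.95e-06). Slc17a6, the vesicular glutamate transporter VGLUT2, was at 531, 999 and 724 CPM in DRG, 0, 0.594 and 0.111 in astrocytes and 0.0223, 0.59 and 0.216 in OPC (-11.52 ± 0.87 (SE), adjusted p = 6.14e-06). Without Astrocytes replicate 2 these differences were -13.36 and -12.63, and without OPC replicate 2 that of Slc17a6 was -12.14. Every glial library was at or below 0.641 CPM for both genes, and the DRG libraries were between 471 and 999.

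Kcnk18, the tandem pore potassium channel TRESK, was at 4.09, 50.8 and 76 CPM in DRG, with DRG replicate 1 well below the others. It had 3 reads in all astrocyte libraries and 2 in all OPC libraries, ratios of 2073 (95% counting interval 709 to 10050) and 3203 (95% counting interval 886 to 26460). Mrgprx1, an itch receptor, read 55.1, 32.5 and 59.3 CPM in DRG and at most 0.0712 in any glial library. Slc10a6, a steroid sulfate transporter, had no read in any glial library and 14.4, 8.25 and 11.4 CPM in DRG, at least 477-fold above astrocytes and at least 491-fold above OPC, taking 3 counts over a group as the limit that 0 allows. The glycosyltransferase gene Galnt5 had 1 read in astrocytes and 0 in OPC against 15.5, 18 and 20.6 CPM in DRG. Cpne4, Ndrg4, Trarg1 and D130009I18Rik made up the rest, with 230.3, 378 and 408 CPM in DRG for Cpne4, 379, 466 and 504 for Ndrg4, 971, 1662 and 1902 for Trarg1 and 30.4, 26.9 and 33.9 for D130009I18Rik.

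The traces of these 15 DRG genes in glia were uneven. Summed over the 15, the glial libraries held 0.207, 6.27 and 0.442 CPM in astrocytes and 0.268, 4.05 and 1.35 in OPC, against 4550, 5582 and 5686 in DRG. Astrocytes replicate 2 was the highest astrocyte library for 12 of the 15 genes and OPC replicate 2 the highest OPC library for 9. Whether these reads come from the glial cells was not tested. Leaving out 1 library moved Trarg1 to -13.00, Ndrg4 to -13.22, Mrgprx1 to -12.73, Tlx2 to -13.56, D130009I18Rik to -12.04 and Kcnk18 to -12.56 without Astrocytes replicate 2, Trarg1 to -11.83, Ndrg4 to -12.16, Tlx2 to -13.13, D130009I18Rik to -12.39 and Kcnk18 to -12.27 without OPC replicate 2 and Kcnk18 to -10.34 without DRG replicate 3. In each of these fits the difference stayed negative and passed the test.

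**Figure D2:**
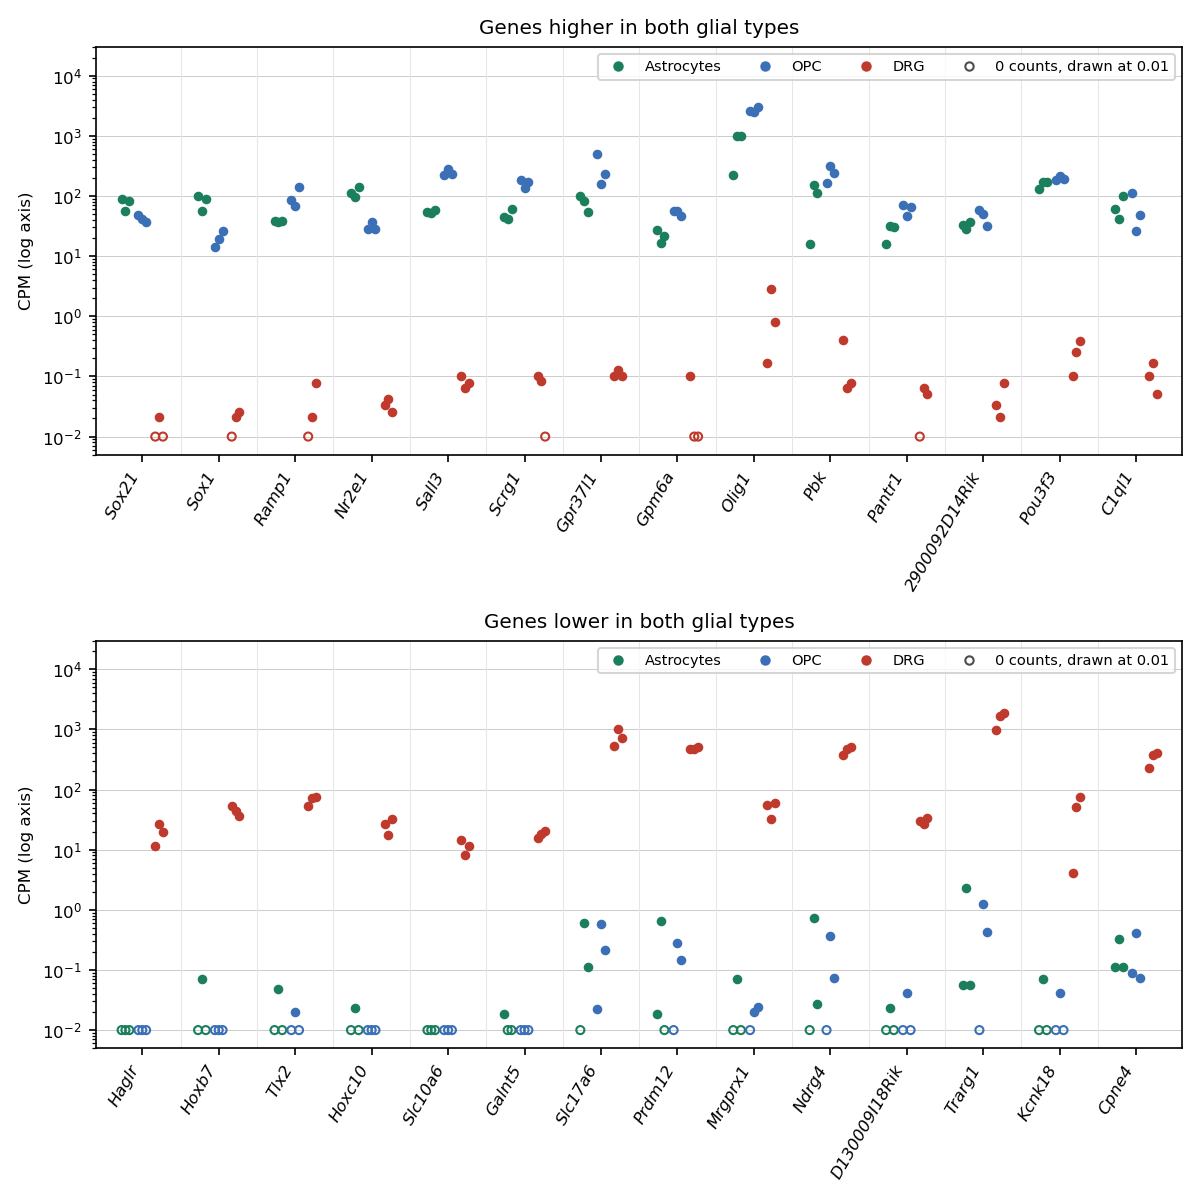
CPM of each library on a log axis for 14 of the 15 shared higher genes (top) and 14 of the 15 shared lower genes (bottom) chosen by rank; green points are astrocytes, blue points OPC and red points DRG, and open points at 0.01 are libraries with 0 counts. Green and blue points stand together above 10 CPM in the top panel and mostly below 1 CPM in the bottom panel, where Astrocytes replicate 2 is often the highest green point.

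Genes of DNA replication and mitosis were higher in both glial types. All 20 replication genes tested were higher by the test, 19 of them in all 6 libraries, with a median log2 difference of 3.50. All 20 mitosis genes were higher, 18 in all 6 libraries, with a median of 7.04 (6.92 with genes at 0 counts in DRG set to the limit of 3 counts). Over all genes tested 32.1% were higher and 21.3% were higher in all 6 libraries. Of 14 DNA repair and chromatin assembly genes, 12 were higher and 9 were higher in all 6 libraries.

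Mki67, the proliferation antigen Ki-67, read 36.4, 586 and 353 CPM in astrocytes, 891, 1545 and 214 in OPC and 3.15, 1.41 and 1.06 in DRG, a log2 difference of 8.18 ± 1.23 (SE), adjusted p = 0.000375. Top2a stood at 2.64, 2.82 and 1.78 CPM in DRG, 65.8, 677 and 468 in astrocytes and 1070, 1571 and 530.4 in OPC (8.08 ± 0.92 (SE), adjusted p = 6.94e-05); it encodes topoisomerase II alpha, which untangles chromosomes. Cdk1, the mitotic kinase, was at 36.6, 193 and 155 CPM in astrocytes, 242, 399 and 426 in OPC and 0.88, 2.53 and 1.37 in DRG (7.04 ± 0.72 (SE), adjusted p = 3.58e-05). For all 3 genes the glial and DRG values did not overlap, and Astrocytes replicate 1 was the glial library nearest to DRG.

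The promoters of mitotic genes often hold a CCAAT box beside a cell cycle homology region (CHR, TTTGAA), and those of S-phase genes a site for E2F factors (TTTCCCGC). Promoter sequences of 300 bases, 250 before and 50 from the transcription start, were taken from RefSeq on GRCm38.p6 and matched 17 of the 20 mitosis genes and 15 of the 20 replication genes. Searched on both strands, TTTGAA was in 12 of the 17 mitosis promoters against 20.2% of the promoters of 27025 genes, and CCAAT was in 15 of the 17 and in 11 of the 15 replication promoters against 41.1%. Both were present in 12 of the 17 against 8.97% of all genes. TTTCCCGC was in 4 of the 15 replication promoters and 1.24% of all, and in 0 of the 17 mitosis promoters. The other motifs searched were GGCGGGAA (E2F, overlapping TTTCCCGC read on the other strand), CATTCC (TEAD), CGTGGGAA (RBPJ), TGACGTCA (CRE), ACAATGG (SOX), the paired NFI half-sites and the RE1 core, both as fixed letters.

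The 5 promoters below are shown because they hold these letters: Ccnb2 (cyclin B2), Cdc20 (activator of the anaphase-promoting complex) and Kif11 (spindle kinesin Eg5) for the CCAAT and CHR pair, and Mcm3 (replicative helicase) and Cdc6 (helicase loader) for E2F. They lie at chr9:70421505-70421804 (minus strand), chr4:118437294-118437593 (minus), chr19:37376132-37376431 (plus), chr1:20820263-20820562 (minus) and chr11:98907901-98908200 (plus), and each reads 5′ to 3′ along its gene. Capitals mark CCAAT and TTTGAA in the first 3, which Kif11 holds as their reverse complements ATTGG and TTCAAA, and the reverse complement of TTTCCCGC in the last pair.
Ccnb2: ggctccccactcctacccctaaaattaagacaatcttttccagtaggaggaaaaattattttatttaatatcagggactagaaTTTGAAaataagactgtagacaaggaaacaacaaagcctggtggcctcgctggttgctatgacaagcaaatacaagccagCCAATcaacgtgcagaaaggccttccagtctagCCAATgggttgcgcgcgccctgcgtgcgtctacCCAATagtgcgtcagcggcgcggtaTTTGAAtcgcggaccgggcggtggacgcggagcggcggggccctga
Cdc20: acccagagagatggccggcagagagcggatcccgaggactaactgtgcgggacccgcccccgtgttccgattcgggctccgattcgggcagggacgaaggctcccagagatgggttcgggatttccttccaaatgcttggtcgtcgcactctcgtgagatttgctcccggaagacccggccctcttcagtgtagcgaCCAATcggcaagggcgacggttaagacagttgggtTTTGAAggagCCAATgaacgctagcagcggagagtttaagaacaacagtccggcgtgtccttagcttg
Kif11: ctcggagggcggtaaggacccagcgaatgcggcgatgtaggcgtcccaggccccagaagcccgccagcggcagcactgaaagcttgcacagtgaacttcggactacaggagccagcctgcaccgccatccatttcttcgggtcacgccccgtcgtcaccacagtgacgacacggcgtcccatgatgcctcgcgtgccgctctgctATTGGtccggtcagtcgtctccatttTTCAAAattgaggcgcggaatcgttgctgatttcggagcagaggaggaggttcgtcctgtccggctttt
Mcm3: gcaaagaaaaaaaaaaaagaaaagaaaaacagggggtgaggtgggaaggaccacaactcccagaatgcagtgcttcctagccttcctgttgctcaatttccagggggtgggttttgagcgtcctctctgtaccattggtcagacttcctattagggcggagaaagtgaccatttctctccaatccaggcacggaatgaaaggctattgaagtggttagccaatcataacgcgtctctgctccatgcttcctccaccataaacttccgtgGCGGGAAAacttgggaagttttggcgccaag
Cdc6: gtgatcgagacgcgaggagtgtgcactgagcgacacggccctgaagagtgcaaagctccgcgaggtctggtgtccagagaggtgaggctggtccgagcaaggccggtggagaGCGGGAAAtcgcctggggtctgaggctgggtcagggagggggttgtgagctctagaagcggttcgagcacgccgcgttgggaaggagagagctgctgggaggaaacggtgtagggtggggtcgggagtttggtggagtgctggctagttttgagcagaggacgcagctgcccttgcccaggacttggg

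In Cdc20 the CHR letters start 18 bases before the transcription start and lie between CCAAT boxes at 53 and 8 bases before it; in Kif11 the pair stands 45 and 19 bases before the start. A match is a description of these windows and shows no binding. The genes behind the 5 promoters were all higher in the glia. Ccnb2 was at 6.62, 58.9 and 40.8 CPM in astrocytes, 59.7, 125 and 100.5 in OPC and 1.05, 0.358 and 0.465 in DRG (log2 difference 6.58 ± 0.85 (SE), adjusted p = 0.00015). Cdc20 stood at 1.12, 1.07 and 0.8 CPM in DRG, 13.3, 111 and 69.2 in astrocytes and 166, 318 and 325 in OPC (7.04 ± 0.77 (SE), adjusted p = 5.60e-05). Both cyclin B2 and Cdc20 were lowest among the glia in Astrocytes replicate 1, which was still above every DRG library.

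Mcm3 was at 44.6, 113 and 99.3 CPM in astrocytes, 183, 326 and 322 in OPC and 2.74, 1.96 and 1.06 in DRG (log2 difference 6.33 ± 0.51 (SE), adjusted p = 8.88e-06). Mcm5, of the same helicase, was at 18.8, 100.1 and 85.3 CPM in astrocytes, 244, 421 and 439 in OPC and 2.88, 2.02 and 2.01 in DRG (6.11 ± 0.63 (SE), adjusted p = 3.79e-05). Cdc6, counted only from reads specific to 1 of its 2 accessions, had 2 reads in all DRG libraries, with glial to DRG ratios of 21.1 (95% counting interval 5.54 to 179.6) in astrocytes and 158 (95% counting interval 43.5 to 1311) in OPC. Pcna, the sliding clamp of replication and repair, was present in DRG at 45.8, 51.7 and 59 CPM and at 149, 299.9 and 288 in astrocytes and 554, 828 and 769.5 in OPC (3.01 ± 0.28 (SE), adjusted p = 2.26e-05). Rrm2, a subunit of ribonucleotide reductase, and the mitotic kinases Plk1 and Aurkb differed by 7.34 ± 0.88, 6.79 ± 0.94 and 7.14 ± 0.90 (SE). Brca1, of DNA break repair, differed by 3.26 ± 0.60.

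The size of the difference was unequal. OPC were above astrocytes by the test for 14 of the 19 shared replication genes, 6 of the 18 shared mitosis genes and 5 of the 9 shared repair and assembly genes, and no member of these groups was lower in OPC. Over all genes tested 51.8% differed between the glial types in either direction. Of all shared higher genes OPC were above astrocytes in 27.4%, and the share of the mitosis genes was near this. Astrocytes replicate 1 was the lowest of the 6 glial libraries for 18 of the 19, all 18 and all 9. Its mitosis list summed to 297.4 CPM, against 3004 and 1906 in the other astrocyte libraries, 4390, 6849 and 3226 in OPC and 25.3, 20 and 16.3 in DRG. Without Astrocytes replicate 1 and OPC replicate 3, an alternative for lists that was chosen after seeing the data, all 20 replication and all 20 mitosis genes were higher in every glial library left and 12 of 14 repair genes were. In that fit 3336 of all 15133 genes tested were. Leaving out the library that is mostly lowest makes this condition easier to meet, so these counts add no support. Members that did not pass were Blm and Dnmt1, the maintenance DNA methyltransferase (log2 difference 0.21 ± 0.39 (SE), adjusted p = 0.669; isoform-specific reads). Dnmt1 was at 0.282, 0.214 and 0.276 CPM in astrocytes, 0.425, 0.651 and 0.577 in OPC and 0.304, 0.484 and 0.181 in DRG.

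Ccnd2 and Wee1, which control entry into the cycle and into mitosis, were higher in both glial types with little difference between them. Ccnd2 read 837, 1203 and 844 CPM in the astrocyte libraries, 769, 1152 and 1131 in the OPC libraries and 110.3, 50.6 and 48.8 in the DRG libraries (log2 difference 3.82 ± 0.36 (SE), adjusted p = 2.39e-05). The inhibitory kinase Wee1 stood at 5.68, 8.99 and 7.28 CPM in DRG, 59, 73.2 and 74 in astrocytes and 55.8, 86.4 and 64.3 in OPC (3.23 ± 0.24 (SE), adjusted p = 5.66e-06). The OPC minus astrocyte difference was 0.08 ± 0.34 (SE) for Ccnd2 and 0.00 ± 0.23 for Wee1. Wee1 was named for the small size of this difference, so its value was set by that choice.

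**Figure D3:**
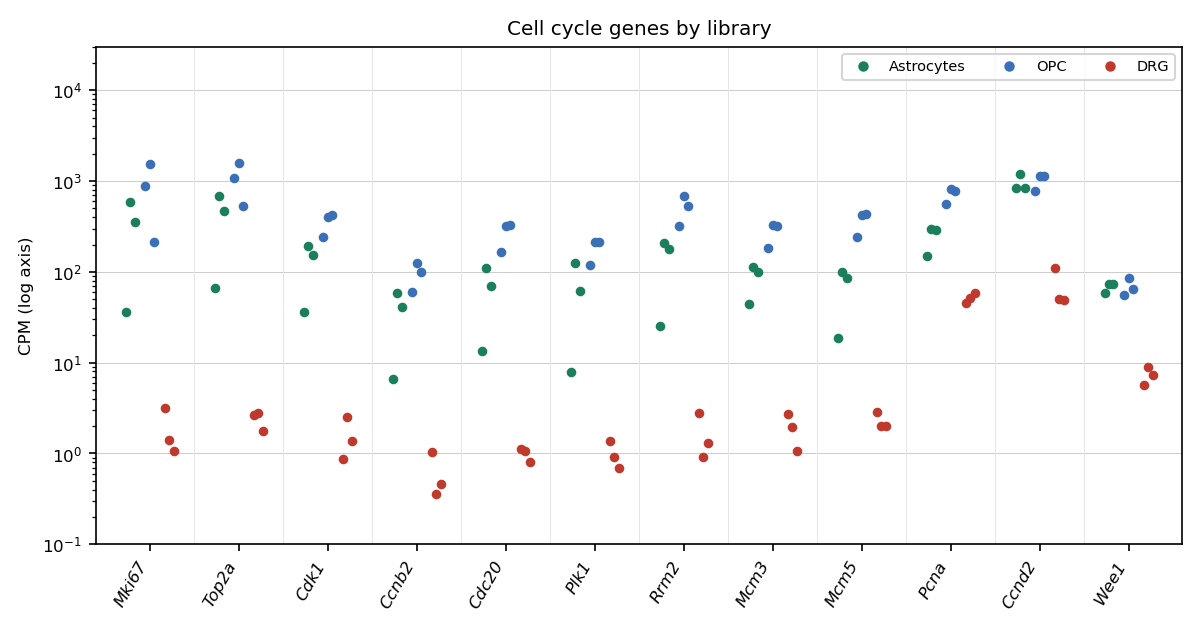
CPM of each library on a log axis for 12 cell cycle genes; green points are astrocytes, blue points OPC and red points DRG, 3 libraries each. Glial points lie above the red points for all 12 genes, and the lowest green point of Mki67 to Mcm5 is Astrocytes replicate 1.

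All 23 transcription and RNA-binding factors of the glial and neural precursor list were higher in the glia, 21 of them in all 6 libraries. Over all genes these shares were 32.1% and 21.3%. The median log2 difference of the list was 6.92. Members were chosen as known precursor factors with earlier results of these data in view. Sox2, the core stem cell factor of the neural lineage, read 396, 295 and 312 CPM in astrocytes, 384, 389 and 372 in OPC and 2.03, 0.611 and 1.68 in DRG (7.97 ± 0.45 (SE), adjusted p = 1.19e-06). Its 6 glial values lay between 295 and 396. Sox9 stood at 1.46, 0.442 and 0.413 CPM in DRG, 382, 161 and 217 in astrocytes and 107, 115 and 122 in OPC (7.83 ± 0.58 (SE), adjusted p = 5.68e-06; 8.62 without DRG replicate 1), and this factor starts gliogenesis. Sox1 was at 98.9, 55.9 and 87.5 CPM in astrocytes and 14, 19.4 and 25.8 in OPC with 2 reads in DRG, ratios of 4745 (95% counting interval 1313 to 39190) and 1133 (95% counting interval 313 to 9359).

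The oligodendrocyte lineage factors were not limited to OPC. Olig2 read 46.4, 148 and 179 CPM in the astrocyte libraries, 1234, 1285 and 1463 in the OPC libraries and 0, 0.463 and 0.361 in the DRG libraries (log2 difference 10.41 ± 0.89 (SE), adjusted p = 1.20e-05). Olig1 was at 223, 977 and 1004 CPM in astrocytes, 2545, 2494 and 3043 in OPC and 0.169, 2.8 and 0.8 in DRG (10.08 ± 1.07 (SE), adjusted p = 4.79e-05). All astrocyte libraries also lay above all DRG libraries, and Astrocytes replicate 1 held the least of each. OPC were above astrocytes by the test for Olig2, and for Olig1 that difference did not pass (adjusted p = 0.0637), though it did without DRG replicate 1 or 2 (0.0305 and 0.0289). Nuclear factor I genes, which switch progenitors to gliogenesis, were counted from few isoform-specific reads. Nfix was at 10.1, 11.4 and 14.3 CPM in astrocytes, 11.7, 12.9 and 13.4 in OPC and 0, 0.147 and 0.129 in DRG (6.92 ± 0.62 (SE), adjusted p = 1.70e-05). Nfib differed by 3.22 ± 0.51 (SE). Nfia had 1 read in DRG with ratios of 25.5 (95% counting interval 4.24 to 1043) and 50.4 (95% counting interval 8.71 to 2026). The POU factor Pou3f2 and Sox8, a relative of Sox9 and Sox10, differed by 5.90 ± 0.43 and 8.08 ± 0.76 (SE). Leaving out 1 library moved Olig1 to 11.44 and Nfib to 3.81 without DRG replicate 2.

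The list also holds the exceptions Sox10 and Zeb1, which passed on the glial mean without being shared. Sox10 read 0.583, 1.07 and 2.76 CPM in the astrocyte libraries, 746, 377 and 425 in the OPC libraries and 9.24, 4.21 and 16.3 in the DRG libraries. Its log2 difference was -2.77 in astrocytes (-3.58 without Astrocytes replicate 3) and 5.70 in OPC against the same DRG libraries. The mean of 1.47 (adjusted p = 0.0429) no longer passed in 6 of the 9 fits that left out 1 library (lowest 1.06, adjusted p = 0.0839 without Astrocytes replicate 3). Zeb1 stood at 161, 155 and 164 CPM in DRG, 133, 199 and 183 in astrocytes and 1027, 1157 and 722 in OPC, so its astrocyte values overlapped DRG (0.10, or -0.02 without Astrocytes replicate 2) while OPC were higher (2.60). Sox10 is shared by OPC and peripheral glia. Other markers of Schwann and satellite cells lay on both sides of DRG, as given below. The part of peripheral glia in the Sox10 values was not tested.

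Factors of position along the body axis divided the cultures. Of 16 forebrain factors tested, 14 were higher in the glia and 1 lower (Nr2f2), and 10 were higher in all 6 libraries. Over all genes 32.1% were higher and 21.3% so in all 6 libraries. The median log2 difference of the forebrain list was 4.74 (4.29 with 0 counts at the limit). All 26 Hox genes tested were lower in every glial library, where 29.1% of all genes were lower by the test and 20.3% in all 6 libraries. In 18 of the 26 Hox genes 1 glial type or both had 0 counts, so the fitted median of -10.15 is no bound; with such groups at the limit of 3 counts it was -8.88. The Hox list summed to 349, 455 and 386 CPM in DRG, 0.282, 0.76 and 0.249 in astrocytes and 0.0447, 0.407 and 0.12 in OPC.

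Among the forebrain factors, Emx2, which sets cortical area, read 23.6, 37.4 and 28.3 CPM in astrocytes, 23.9, 21.6 and 21.1 in OPC and 0, 0.19 and 0.0516 in DRG (8.11 ± 0.66 (SE), adjusted p = 8.94e-06). Nr2f1 stood at 4.4, 4.25 and 3.36 CPM in DRG, 94.1, 77.3 and 99.3 in astrocytes and 103, 77 and 69.4 in OPC (4.43 ± 0.23 (SE), adjusted p = 8.01e-07). Otx1 was at 0.0338, 0.147 and 0.129 CPM in DRG, 28.2, 37.4 and 42.6 in astrocytes and 2.77, 5.29 and 4.47 in OPC (6.78 ± 0.48 (SE), adjusted p = 4.30e-06). Lhx2, needed for cortical identity, had 3 reads in DRG. It was at 7.58, 24.2 and 25.4 CPM in astrocytes and 2.97, 11.5 and 13.9 in OPC, ratios of 688 (95% counting interval 235 to 3337) and 363 (95% counting interval 124 to 1763). Pax6 had 2 reads in DRG with ratios of 361 (95% counting interval 99.7 to 2987) and 49.2 (95% counting interval 13.3 to 411). Zic1 overlapped between OPC and DRG, at 3, 3.62 and 3.39 CPM in OPC and 3.35, 0.926 and 2.43 in DRG. Without DRG replicate 2, Emx2 moved to 9.65.

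For the Hox genes the DRG values were many times the glial ones. Hoxb7 was at 53.1, 44.1 and 36.5 CPM in DRG, 3 reads in astrocytes and 0 in OPC, a ratio of 1921 (95% counting interval 657 to 9316) to astrocytes and at least 1979-fold to OPC. Hoxc10, at 26.3, 17.6 and 32 CPM, had 1 read in astrocytes and 0 in OPC (at least 1113-fold), and Hoxb2, at 6.5, 7.6 and 8.24 CPM, had 0 in both (at least 330 and 340-fold). Hoxa2, the member with the smallest fitted difference, at 0.778, 0.547 and 0.671 CPM, gave at least 28.4-fold to astrocytes and 87.7 (95% counting interval 15.3 to 3511) to OPC. Haglr, an antisense transcript of the Hoxd cluster, had 0 reads in all 6 glial libraries and 11.7, 27 and 19.3 CPM in DRG, at least 899 and 926-fold. Whether the counting used strand is not given, so reads of overlapping sense genes cannot be told apart from it.

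Receptors and ligands were split. The counts of these lists are to be read against all genes tested, of which 32.1% were higher, 29.1% lower, and 21.3% and 20.3% so in all 6 libraries. In the Notch list of 20, 10 genes were higher and 2 lower, with 7 and 2 in all 6 libraries and a median of 1.16. Notch1 read 198, 250.2 and 297 CPM in astrocytes, 374, 261 and 249 in OPC and 7.58, 4.08 and 9.37 in DRG (5.27 ± 0.36 (SE), adjusted p = 3.28e-06). Lfng, a glycosyltransferase that tunes Notch, read 113, 62.7 and 88 CPM in astrocytes, 21.1, 27.9 and 33 in OPC and 0.44, 0.21 and 0.284 in DRG (7.33 ± 0.39 (SE), adjusted p = 9.79e-07). Notch2 was high in astrocytes at 306, 277 and 312 CPM and lower in OPC at 28, 13.2 and 13.9, still above DRG at 4.67, 3.71 and 5.5. The ligand Dll1 had the reverse order, 121, 70.2 and 64.2 CPM in OPC, 2.31, 3.13 and 2.54 in astrocytes and 0.338, 0.337 and 0.387 in DRG. Jag1 was higher in the glia (2.63 ± 0.36 (SE), adjusted p = 0.000219) and its relative Jag2 lower, with 87.4, 98.5 and 88.8 CPM in DRG, 12.6, 2.78 and 4.48 in astrocytes and 7.51, 10.8 and 8.54 in OPC (-3.57 ± 0.39 (SE), adjusted p = 5.74e-05).

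Of the transcriptional targets of Notch, Heyl was lower in every glial library (log2 difference -3.80 ± 0.76, SE; -4.55 without OPC replicate 3). Hes1 did not pass, at 13.8, 18.7 and 21.2 CPM in astrocytes, 8.32, 8.08 and 13.7 in OPC and 15.2, 11.1 and 17 in DRG (-0.11 ± 0.26 (SE), adjusted p = 0.742), and its sign turned to 0.10 with scaling by library size alone. Hes5 passed only on the mean, with 37.7, 3.15 and 11.8 CPM in OPC, 0.47, 1.16 and 0.525 in astrocytes and 0.474, 0.168 and 0.181 in DRG.

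The 19 growth factor receptors gave 10 higher and 3 lower, 6 and 2 of them in all 6 libraries, beside 21.3% and 20.3% of all genes. Egfr, the receptor for epidermal growth factor, was at 28.4, 57.7 and 46.9 CPM in astrocytes, 102, 120.2 and 82.4 in OPC and 2.27, 0.737 and 1.55 in DRG (5.48 ± 0.45 (SE), adjusted p = 9.93e-06). Erbb4, a neuregulin receptor, was at 4.42, 3.87 and 3.51 CPM in astrocytes, 38.1, 24.7 and 10.5 in OPC and 0.0338, 0.105 and 0.103 in DRG (6.81 ± 0.60 (SE), adjusted p = 1.48e-05). Erbb3, the neuregulin receptor of Schwann cells, was lower in the glia, at 2.13, 1.09 and 1.11 CPM in astrocytes and 1.97, 0.468 and 0.385 in OPC against 4.03, 3.22 and 8.34 in DRG (-2.15 ± 0.55 (SE), adjusted p = 0.00757). Lifr, the receptor for leukaemia inhibitory factor, stood at 392, 634 and 562 CPM in DRG, 34, 32.5 and 27.3 in astrocytes and 63, 39 and 23.6 in OPC (-3.87 ± 0.28 (SE), adjusted p = 4.99e-06). Fgfr2 was far above DRG in astrocytes (7.23) and less so in OPC (1.59), and Fgfr3, with 0 reads in DRG, was at least 84.6-fold and 3.71-fold higher. The insulin receptor Insr differed by 0.75 ± 0.19 (SE), from 59.4, 75.8 and 63.6 CPM in DRG to 87.3, 120.4 and 80 in astrocytes and 146, 138 and 108 in OPC.

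In the list of ID factors and BMP signalling, 8 of 15 were higher and 2 lower, beside 32.1% and 29.1% of all genes. In all 6 libraries 5 were higher and 1 lower, beside 21.3% and 20.3%. The median of 1.36 joined unequal types, with 2.80 in astrocytes and -0.08 in OPC against DRG. By the test 10 of the 15 were lower in OPC than in astrocytes and 1 was higher. Over all 14848 genes 3786 were lower in OPC and 3903 higher. Id2, an inhibitor of proneural factors, was at 407, 246 and 373 CPM in astrocytes, 157, 127 and 195 in OPC and 60.1, 25.7 and 32.3 in DRG (2.57 ± 0.33 (SE), adjusted p = 0.000148). The BMP receptor Bmpr1a was at 417, 488 and 456 CPM in astrocytes, 259, 235 and 131 in OPC and 115, 89 and 95.9 in DRG (1.62 ± 0.23 (SE), adjusted p = 0.000296). Bmp7, a ligand, was 1.08 in astrocytes and 6.12 in OPC against the same DRG libraries. Id1 was at 127, 219 and 199 CPM in astrocytes, 12.3, 7.37 and 20.2 in OPC and 46.4, 34.4 and 40.7 in DRG, so that OPC lay below DRG. Id3 was at 403, 527 and 540 CPM in astrocytes, 22.9, 10.5 and 26.8 in OPC and 12.3, 6.38 and 17 in DRG, with overlap of OPC and DRG, and neither gene was shared.

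Of 17 Hippo pathway genes, 13 were higher and none lower, beside 32.1% and 29.1% of all genes. The median against DRG was 3.48 in astrocytes and 0.47 in OPC. By the test 13 of the 17 were lower in OPC than in astrocytes and 0 higher, beside 3786 and 3903 of all 14848 genes. Above DRG in all 6 libraries were 4 (Amotl2, Fat1, Sav1 and Stk4), a share near the 21.3% of all genes. Without Astrocytes replicate 1 and OPC replicate 3 there were 7, beside 3336 of 15133 genes tested in that fit. The giant cadherin Fat1 was at 1199, 1738 and 1687 CPM in astrocytes, 389, 386 and 329 in OPC and 48.7, 11.6 and 24.1 in DRG (4.75 ± 0.48 (SE), adjusted p = 3.55e-05; 5.40 without DRG replicate 1). Differences in the kinase Stk4 and its scaffold Sav1 were small, 0.85 ± 0.13 and 0.67 ± 0.17 (SE). Yap1, the effector of the pathway, was 6.13 in astrocytes and 0.60 in OPC from isoform-specific reads, and in OPC -0.10 without OPC replicate 3. The YAP target Ccn2 did not pass on the mean (-1.79 ± 0.74 (SE), adjusted p = 0.0593; -0.70 without DRG replicate 1), with 286, 976 and 2564 CPM in astrocytes, 0.268, 0.407 and 0.505 in OPC and 160.3, 16.7 and 56.3 in DRG.

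Matrix of the central nervous system was mostly higher in the glia: 14 of 16 genes passed as higher and 1 as lower, beside 32.1% and 29.1% of all genes. In all 6 libraries 8 were higher and 1 lower, beside 21.3% and 20.3%. The list had a median of 3.53. Ptprz1, a phosphatase whose secreted form is the proteoglycan phosphacan, read 1139, 1166 and 1112 CPM in astrocytes, 3853, 2429 and 1189 in OPC and 20.6, 9.47 and 8.55 in DRG (7.04 ± 0.56 (SE), adjusted p = 8.18e-06). Ncan stood at 80.3, 84.4 and 59 CPM in DRG, 631, 2608 and 2411 in astrocytes and 1209, 719 and 806 in OPC (4.13 ± 0.50 (SE), adjusted p = 0.000104), for neurocan. Bcan, for brevican, stood at 3.01, 6.08 and 1.63 CPM in DRG, 116, 93.3 and 104 in astrocytes and 832, 319 and 395 in OPC (6.01 ± 0.57 (SE), adjusted p = 2.27e-05). Cspg4, the NG2 proteoglycan of OPC, was 7.67 in OPC and 2.15 in astrocytes, and tenascin C (Tnc) had the opposite order, 5.23 in astrocytes and 2.09 in OPC, where it was 1.45 and did not pass without OPC replicate 3 (adjusted p = 0.109). Sparcl1, the synapse-promoting protein hevin, differed by 4.99 ± 0.59 (SE), and Vcan, for versican, by 3.41 ± 0.76 from isoform-specific reads. Hapln4, a link protein of perineuronal matrix, was lower in the glia, with 28, 87.5 and 70.7 CPM in DRG, 3.54, 8.1 and 5.78 in astrocytes and 2.57, 5.74 and 5.05 in OPC (-3.61 ± 0.40 (SE), adjusted p = 6.28e-05). Gpc4, an astrocyte glypican, was 5.53 in astrocytes and -0.98 in OPC and was not shared. Without DRG replicate 2 Bcan moved to 6.64, and without DRG replicate 1 Sparcl1 moved to 5.79.

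Of 16 genes that take up or turn over glutamate, glutamine and GABA, 9 were higher and 3 lower, beside 32.1% and 29.1% of all genes. In all 6 libraries 7 were higher and 2 lower, beside 21.3% and 20.3% (median 1.24). Slc1a3, the glutamate transporter GLAST, was at 1574, 1360 and 1300 CPM in astrocytes, 631, 923 and 827 in OPC and 3.59, 0.821 and 2.66 in DRG (8.83 ± 0.57 (SE), adjusted p = 2.48e-06). The GABA transporter Slc6a11 and Slc1a2 (GLT-1, isoform-specific reads) differed by 5.80 ± 0.75 and 4.36 ± 0.55 (SE). Slc1a2 moved to 5.09 without DRG replicate 1. The difference in Slc1a3 between the glial types did not pass (adjusted p = 0.12, but 0.0152 without DRG replicate 2).

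Glul, glutamine synthetase, was at 923, 688 and 566 CPM in astrocytes, 292, 205 and 209 in OPC and 138, 90.2 and 108 in DRG (1.88 ± 0.24 (SE), adjusted p = 0.000132), and Slc38a3, a glutamine transporter of glia, differed by 4.96 ± 0.53 (SE). Slc38a2, a further glutamine transporter, was at 648, 651 and 705 CPM in DRG, 186, 281 and 313 in astrocytes and 477, 352 and 290.2 in OPC (-1.10 ± 0.20 (SE), adjusted p = 0.00134). Gad1, which makes GABA and was listed as a marker of central neurons, was higher in the glia at 20.4, 13.8 and 5.39 CPM in astrocytes and 61.9, 30.4 and 50.8 in OPC against 0.372, 1.83 and 0.103 in DRG (4.99 ± 0.90 (SE), adjusted p = 0.00113; 6.75 without DRG replicate 2).

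In the list of REST and its cofactors, 8 of 13 were higher, 2 lower and 3 did not pass, with 8 higher and 1 lower in all 6 libraries, beside 21.3% and 20.3% of all genes. Rest itself read 33.9, 44.7 and 41.2 CPM in astrocytes, 28.3, 25 and 18.6 in OPC and 2.4, 2.02 and 2.61 in DRG (3.72 ± 0.25 (SE), adjusted p = 2.92e-06). The small phosphatases of the complex were all higher: Ctdsp1 stood at 5.92, 4.19 and 7.51 CPM in DRG, 209, 163 and 167 in astrocytes and 110.5, 96.1 and 114 in OPC (4.56 ± 0.25 (SE), adjusted p = 1.04e-06). Ctdsp2 was at 6.09, 5.28 and 7.02 CPM in DRG, 53.1, 47.8 and 52.8 in astrocytes and 47.7, 47.3 and 57.6 in OPC (3.06 ± 0.19 (SE), adjusted p = 1.79e-06). Ctdspl was at 8.83, 6.8 and 6.58 CPM in DRG, 48.8, 33.9 and 47.9 in astrocytes and 45.5, 39.2 and 34.7 in OPC (2.49 ± 0.22 (SE), adjusted p = 1.54e-05). Glial and DRG libraries were well apart for all 4 genes. The OPC minus astrocyte difference of Ctdsp2, a gene named for the small size of this difference, was -0.01 ± 0.18 (SE). The deacetylase Hdac1 and the demethylase Kdm1a differed by 1.98 ± 0.14 and 1.14 ± 0.25 (SE), while the corepressor Rcor1 was lower, with a log2 difference of -0.89 ± 0.20.

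Of 20 genes known to carry RE1 sites, the element that REST binds, none was higher and 19 were lower, beside 29.1% lower of all genes. In all 6 libraries 16 were lower, beside 20.3% of all genes. The median was -5.30. L1cam, an axonal adhesion molecule, stood at 1404, 1376 and 1421 CPM in DRG, 0.677, 3.37 and 0.995 in astrocytes and 2.3, 3.15 and 1.83 in OPC (-9.44 ± 0.50 (SE), adjusted p = 9.37e-07). Scg2, a granin of dense-core vesicles, was at 879.8, 679 and 534 CPM in DRG, 1.35, 15.9 and 12.6 in astrocytes and 1.12, 1.18 and 1.3 in OPC (-7.66 ± 0.63 (SE), adjusted p = 9.70e-06). Chga, a further granin, was -7.95 in astrocytes and only -3.60 in OPC, and Vgf and Bdnf differed by -4.89 ± 0.64 and -4.98 ± 0.72 (SE). Scn2a was the member that did not pass (-0.92 ± 0.37 (SE), adjusted p = 0.0532), with 41.7, 23.4 and 21.9 CPM in DRG, 11, 16.2 and 15.5 in astrocytes and 15.5, 26.3 and 7.8 in OPC. The RE1 core was in none of the 13 promoters matched for these genes and in 8 of 27025 promoters in all, which says only that these letters are not in those 300 bases.

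Splicing factors lay on both sides. Of 19 tested, 5 were higher and 11 lower, beside 32.1% and 29.1% of all genes. In all 6 libraries 5 were higher, near the 21.3% of all genes, and 9 were lower, beside 20.3%. Ptbp1, the polypyrimidine tract binding protein of non-neuronal cells, was at 12.6, 11.3 and 13.2 CPM in astrocytes, 6.71, 9.22 and 10.6 in OPC and 0.44, 0.547 and 0.336 in DRG from isoform-specific reads (4.55 ± 0.32 (SE), adjusted p = 4.38e-06). Qk, the quaking protein of glia, was at 160, 190 and 201 CPM in astrocytes, 585, 352 and 186 in OPC and 16.9, 6.55 and 9.86 in DRG (4.57 ± 0.48 (SE), adjusted p = 4.28e-05). Ptbp2, the neuronal relative of Ptbp1, was lower in astrocytes (-2.38) and overlapped DRG in OPC (0.41). Among neuronal factors, Elavl3 stood at 339.5, 284 and 286 CPM in DRG, 150.4, 117 and 99.8 in OPC and 3.86, 5.67 and 7.1 in astrocytes (-3.54 ± 0.21 (SE), adjusted p = 1.47e-06). Srrm4, which includes neuronal microexons, was at 38.3, 48.3 and 30.4 CPM in DRG, 1.52, 2.95 and 2.89 in OPC and 16.8, 9.85 and 6.33 in astrocytes (-2.91 ± 0.33 (SE), adjusted p = 7.31e-05). Rbfox1 was at 27.9, 27.3 and 29.1 CPM in DRG, 0.961, 1.16 and 0.818 in OPC and 0.0188, 0.0237 and 0.0829 in astrocytes (-7.11 ± 0.32 (SE), adjusted p = 5.01e-07). All DRG libraries were above all glial libraries for these 3 genes, with OPC nearer to DRG for Elavl3 and Rbfox1 and astrocytes nearer for Srrm4.

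Nova1 and Nova2, factors named for neurons, were higher in both glial types than in DRG. Nova2 was at 53.5, 42 and 53.9 CPM in astrocytes, 109, 80.5 and 98.5 in OPC and 11.9, 13.4 and 13.6 in DRG (2.41 ± 0.18 (SE), adjusted p = 5.24e-06). Nova1 was at 22.7, 20.9 and 22.2 CPM in astrocytes, 394, 215 and 139.9 in OPC and 9.54, 9.77 and 7.77 in DRG (3.04 ± 0.33 (SE), adjusted p = 5.32e-05). Elavl4 and Celf3 differed by -7.63 ± 0.43 and -3.77 ± 0.49 (SE), and Elavl4 moved to -8.51 without Astrocytes replicate 1. Celf4 had 3 reads in each glial type, ratios of 50.3 (95% counting interval 16.9 to 247) and 51.9 (95% counting interval 17.4 to 255).

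The pyruvate kinase gene Pkm shows an exon choice that PTBP1 is known to control, and it was looked at after its values were seen, as a description with no test. Its transcripts hold 1 of 2 exons of 167 bases, at chr9:59675029-59675195 (upstream, muscle and brain form M1) and chr9:59675568-59675734 (downstream, form M2), on the plus strand of GRCm38, with 103 bases the same. They are printed from the GENCODE transcripts to show how far the 2 exons differ, with the 64 bases that differ in capitals.
Pkm upstream exon: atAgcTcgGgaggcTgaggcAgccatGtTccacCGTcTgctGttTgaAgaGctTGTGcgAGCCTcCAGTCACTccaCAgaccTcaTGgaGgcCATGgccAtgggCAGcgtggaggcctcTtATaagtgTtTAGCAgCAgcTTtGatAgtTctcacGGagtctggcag
Pkm downstream exon: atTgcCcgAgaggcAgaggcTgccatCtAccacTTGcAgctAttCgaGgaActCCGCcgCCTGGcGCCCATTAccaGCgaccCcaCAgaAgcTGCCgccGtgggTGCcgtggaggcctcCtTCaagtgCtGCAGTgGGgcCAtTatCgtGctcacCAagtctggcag

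Of the reads specific to 1 of the 2 Pkm accessions, the downstream exon's accession took 90.7, 94.2 and 95.4% in astrocytes, 93.4, 92.4 and 93.1% in OPC and 1.51, 0.411 and 0.846% in DRG. The downstream exon was thus the main one in all 6 glial libraries and the upstream exon in all 3 DRG libraries. The sum of both was lower in the glia, with 265, 749 and 729.8 CPM in DRG, 124, 132 and 156 in astrocytes and 144, 155 and 236 in OPC (-1.89 ± 0.31 (SE), adjusted p = 0.000601). By accession the reads of the upstream one went from 261.1, 745.5 and 723.6 CPM in DRG to between 7.16 and 16.2 in glia. Those of the downstream accession went from between 3.07 and 6.17 to between 112.9 and 219.9.

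**Figure D4:**
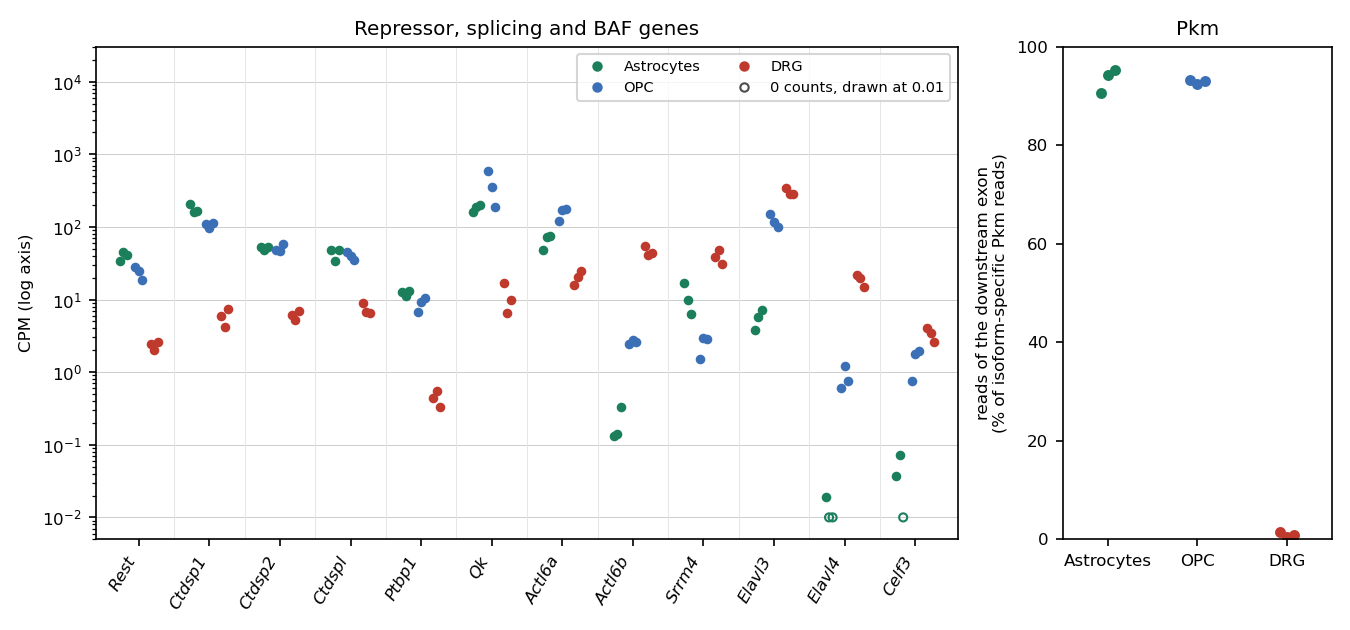
Left, CPM of each library on a log axis for repressor, splicing and BAF genes, with astrocytes in green, OPC in blue, DRG in red and 0 counts as open points at 0.01; right, the percentage of isoform-specific Pkm reads from the accession with the downstream exon in each library. Rest to Actl6a are lower in DRG and Actl6b to Celf3 higher, and the downstream exon takes 90.7 to 95.4% in all 6 glial libraries and 0.411 to 1.51% in DRG.

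Among subunits of the BAF remodeler, Actl6a and Actl6b lay on opposite sides of DRG. Actl6a, the subunit BAF53a of progenitors, was at 48.2, 72 and 75.7 CPM in astrocytes, 122, 169 and 177 in OPC and 15.6, 20.2 and 24.3 in DRG (2.33 ± 0.24 (SE), adjusted p = 3.97e-05). Its neuronal counterpart Actl6b (BAF53b) was at 0.132, 0.142 and 0.332 CPM in astrocytes, 2.46, 2.75 and 2.6 in OPC and 55, 41.5 and 44 in DRG (-6.02 ± 0.28 (SE), adjusted p = 5.61e-07). OPC held more Actl6b than astrocytes, but far less than DRG. Over the 19 subunits tested 12 were higher and 5 lower, beside 32.1% and 29.1% of all genes. In all 6 libraries 5 were higher and 4 lower, near the 21.3% and 20.3% of all genes. The pair thus does not stand for the list. Smarcd3, Smarca2 and Dpf3 were shared and higher by 1.87 ± 0.20, 0.97 ± 0.25 and 3.86 ± 0.35 (SE).

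Genes of the axon were lower in both glial types. Of 19 neuronal cytoskeleton genes 18 were lower and 1 higher, 16 and 1 in all 6 libraries (median -4.65). Of 18 axonal transport genes 16 were lower and 1 higher, 15 and 0 in all 6 (median -3.19). Over all genes tested 29.1% were lower and 20.3% so in all 6 libraries. Nefl, the light neurofilament chain, stood at 15670, 7381 and 8487 CPM in DRG, 0.0188, 10.5 and 0.719 in astrocytes and 19.7, 27.3 and 20.1 in OPC (-10.17 ± 1.23 (SE), adjusted p = 0.000102). Nefm was at 21370, 5996 and 6876 CPM in DRG, 0.132, 10.1 and 0.857 in astrocytes and 17.4, 24.9 and 12.2 in OPC. Nefh was at 3683, 6380 and 6785 CPM in DRG, 0.0376, 9.66 and 1.11 in astrocytes and 1.12, 5.31 and 1.4 in OPC, with log2 differences of -10.44 ± 1.18 and -10.84 ± 1.26 (SE). Among astrocytes, replicate 2 held more of all 3 neurofilament genes than the other astrocyte libraries, and leaving out 1 library moved Nefl to -11.89, Nefm to -11.92 and Nefh to -12.20 without Astrocytes replicate 2 and Nefm to -9.62 without DRG replicate 1.

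Tubb3, the neuronal beta-tubulin, was at 5458, 6226 and 7276 CPM in DRG, 8.39, 17.9 and 13.7 in astrocytes and 67.8, 87.8 and 127 in OPC (-7.48 ± 0.31 (SE), adjusted p = 3.49e-07). Map1b, a microtubule protein of growing axons, was at 7713, 10550 and 12760 CPM in DRG, 108, 271 and 204 in astrocytes and 157, 252 and 135 in OPC (-5.78 ± 0.34 (SE), adjusted p = 1.60e-06). Tau (Mapt, isoform-specific reads) differed by -8.50 ± 0.23 (SE). Gap43, of growth cones, was -5.70 in astrocytes and -2.02 in OPC against the same DRG libraries. Map2, the dendritic microtubule protein, was the member that was higher in the glia, at 19.5, 20.8 and 27.3 CPM in astrocytes, 37.7, 40.7 and 23.4 in OPC and 0.372, 0.295 and 0.723 in DRG (5.89 ± 0.42 (SE), adjusted p = 4.38e-06). It has 2 accessions here and only reads specific to 1 of them were counted. Crmp1 and Ina were lower on the mean and not shared, since OPC overlapped DRG for Crmp1 (16.2, 28.9 and 35.9 CPM against 27.8, 32.9 and 23.5) and for Ina (48, 44.5 and 40.4 against 54.1, 20.2 and 7.88).

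The kinesin Kif5a stood at 1368, 1468 and 1378 CPM in DRG, 7.96, 5.82 and 5.8 in astrocytes and 26.5, 21.3 and 19.1 in OPC (-6.86 ± 0.18 (SE), adjusted p = 5.95e-08). Kif1a, which moves synaptic vesicle precursors, was at 33.2, 25.5 and 20.6 CPM in DRG, 0.207, 0.261 and 0.194 in astrocytes and 0.626, 0.326 and 0.361 in OPC (-6.40 ± 0.30 (SE), adjusted p = 5.70e-07). Kif5c was at 2420, 2034 and 2093 CPM in DRG, 79, 132 and 116 in astrocytes and 62.4, 49.5 and 31.3 in OPC (-4.92 ± 0.25 (SE), adjusted p = 7.53e-07). The dynein heavy chain Dync1h1, which all cells use, was at 3667, 4498 and 4283 CPM in DRG, 738, 953 and 947 in astrocytes and 1023, 797 and 794 in OPC, a log2 difference of -2.25 ± 0.17 (SE). Kif21b was higher on the mean by the OPC libraries, which read 497, 365 and 443 CPM against 49.2, 49.5 and 28.8 in astrocytes and 42.7, 45.1 and 5.86 in DRG.

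Of 24 synaptic vesicle genes, none was higher and 22 were lower, 21 in all 6 libraries, beside 29.1% and 20.3% lower of all genes. The median was -4.68. Syp, the vesicle protein synaptophysin, stood at 1877, 1287 and 1143 CPM in DRG, 27.2, 11.9 and 14.5 in astrocytes and 49.9, 46.3 and 53.5 in OPC (-5.59 ± 0.28 (SE), adjusted p = 7.75e-07). Snap25, of the fusion complex, was at 188, 284 and 288 CPM in DRG, 0, 0.451 and 0.0276 in astrocytes and 1.81, 5.74 and 2.91 in OPC (-8.41 ± 0.69 (SE), adjusted p = 9.93e-06; -10.15 without Astrocytes replicate 2). Bsn, the active zone protein bassoon, was at 313, 419 and 303 CPM in DRG, 4.31, 3.04 and 2.74 in astrocytes and 51.7, 55.4 and 58 in OPC (-4.66 ± 0.18 (SE), adjusted p = 2.84e-07). For 15 of the 21 shared genes OPC were above astrocytes by the test and for 1 below, beside 24.3% and 16.9% of all shared lower genes. Cplx1, complexin, was -10.73 in astrocytes (-12.35 without Astrocytes replicate 2, -10.12 without Astrocytes replicate 1) and -4.21 in OPC, and its mean was -8.28 without Astrocytes replicate 2. The vesicle protein Vamp2 and synapsin Syn1 differed by -2.84 ± 0.17 and -5.57 ± 0.28 (SE). Rims2 and Vamp1 did not pass, with log2 differences of 0.01 ± 0.29 and 0.92 ± 0.40 from few isoform-specific reads.

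Of 25 voltage-gated channel genes none was higher and 24 were lower, 19 in all 6 libraries, beside 29.1% and 20.3% lower of all genes. The median was -4.51, or -4.36 with 0 counts at the limit. Scn11a, a sodium channel of sensory neurons, stood at 166, 143 and 162 CPM in DRG, 0.282, 0.237 and 0.0829 in astrocytes and 0.0447, 0.102 and 0.0962 in OPC (-10.20 ± 0.31 (SE), adjusted p = 1.02e-07). Scn9a, a further sodium channel of these neurons, was at 22, 53.3 and 62.1 CPM in DRG and at most 0.142 in glia, and Scn10a at 19.1, 110.4 and 148 CPM in DRG and at most 0.261 in glia. DRG replicate 1 was the lowest DRG library and Astrocytes replicate 2 the highest glial library for both. Hcn2, a pacemaker channel, was at 131, 242 and 146 CPM in DRG, 23, 19.6 and 21.5 in OPC and 3.61, 4.04 and 4.37 in astrocytes. The potassium channel Kcnh2 was at 190, 185 and 109 CPM in DRG, 19.8, 22.2 and 30.9 in OPC and 4.8, 3.32 and 3.07 in astrocytes (log2 differences -4.22 ± 0.20 and -4.08 ± 0.24, SE), with OPC between astrocytes and DRG for both. Cacna1b, the N-type calcium channel, differed by -6.06 ± 0.37.

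Sensory neuron identity genes were lower for 15 of 17 tested and higher for 1, 14 and 1 in all 6 libraries. Over all genes 29.1% were lower and 20.3% so in all 6. The median of the list was -9.28 (-8.88 with 0 counts at the limit). The homeobox factors Isl1 and Pou4f1 stood at 96.7, 222 and 269.6 CPM in DRG for Isl1 and 342, 365 and 333 for Pou4f1, and at most 0.332 and 1.09 in glia. Avil, advillin, was at 1728, 2673 and 2225 CPM in DRG, 1.09, 4.06 and 0.885 in astrocytes and 0.894, 2.95 and 1.73 in OPC (-10.15 ± 0.60 (SE), adjusted p = 1.56e-06). P2rx3, an ATP-gated channel, was at 2449, 1729 and 1891 CPM in DRG, 1.77, 3.56 and 1.13 in astrocytes and 7.18, 5.33 and 13.3 in OPC (-8.88 ± 0.44 (SE), adjusted p = 6.90e-07). The capsaicin receptor Trpv1 was at 21.5, 19.9 and 34.2 CPM in DRG, 0.433, 0.166 and 0.829 in astrocytes and 0.134, 0.142 and 0.12 in OPC (-6.63 ± 0.44 (SE), adjusted p = 3.11e-06). Tlx2, a homeobox factor of crest-derived neurons, had 2 reads in astrocytes and 1 in OPC against 54.2, 71.5 and 74 CPM in DRG.

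The neurotrophin receptors did not lie on one side. Ntrk2 (TrkB) was higher in both glial types, at 1476, 552 and 717 CPM in astrocytes, 441, 249 and 236 in OPC and 1.12, 0.379 and 1.47 in DRG (9.09 ± 0.69 (SE), adjusted p = 6.18e-06). Of the reads specific to its compared accessions, the truncated form of 476 codons, which lacks the kinase, took 97.4 to 98.8% in astrocytes and 96.5 to 98.7% in OPC, against the form of 821 codons. In DRG, with few such reads, it took 100, 72.2 and 98.2%. Ntrk3 did not pass on the mean (-0.12 ± 0.33 (SE), adjusted p = 0.767): astrocytes were at 7.47, 3.16 and 3.9, OPC at 93.9, 69.5 and 75.2 and DRG at 14.7, 32.1 and 17.3 CPM. With only the accession of the most counts the difference was 1.67. Ngfr, the low-affinity receptor p75, was at 2895, 7945 and 6758 CPM in DRG, 1.05, 36.2 and 6.11 in astrocytes and 1.05, 9.04 and 4.16 in OPC (-9.47 ± 1.11 (SE), adjusted p = 8.43e-05; -10.48 without Astrocytes replicate 2).

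None of 19 glycolysis genes was higher and 16 were lower, 11 in all 6 libraries, beside 29.1% and 20.3% lower of all genes. The median was -1.71. Slc2a3, the neuronal glucose transporter GLUT3, stood at 409.6, 525 and 440.3 CPM in DRG, 34, 80.3 and 48.5 in astrocytes and 54.7, 51.9 and 62 in OPC (-3.05 ± 0.24 (SE), adjusted p = 7.36e-06). Eno2, the neuronal enolase, was at 2003, 2338 and 1738 CPM in DRG, 39.7, 52.8 and 24.3 in astrocytes and 10.2, 11.7 and 11.1 in OPC (-6.61 ± 0.25 (SE), adjusted p = 2.71e-07). Enzymes that are not limited to neurons were lower too. Gpi1 was at 2785, 3163 and 2133 CPM in DRG, 641, 566 and 664 in astrocytes and 495, 399 and 551 in OPC (-2.30 ± 0.17 (SE), adjusted p = 6.36e-06). Tpi1, Hk1 and Pgk1 differed by -2.11 ± 0.16, -2.38 ± 0.22 and -0.68 ± 0.16 (SE). Ldha, from few isoform-specific reads, differed by -4.08 ± 0.45, and Eno1 did not pass (-0.13 ± 0.26 (SE), adjusted p = 0.684).

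Of 20 subunits of the respiratory chain, 8 were lower and 1 higher by the test, beside 29.1% and 32.1% of all genes. Only 1 each (Ndufa1 and Ndufs1) was so in all 6 libraries, beside 20.3% and 21.3%. The median was -0.34. Ndufa1 was at 50.4, 63.1 and 61.5 CPM in astrocytes, 80.8, 62.1 and 88.8 in OPC and 127, 92.7 and 111 in DRG (-0.71 ± 0.17 (SE), adjusted p = 0.00466). In OPC replicate 3 the list summed to 11690 CPM, against 8224 and 8626 in the other OPC libraries. Its sums were 4601, 5151 and 5350 in astrocytes and 8668, 8600 and 8333 in DRG. OPC replicate 3 was the highest glial library for 19 of the 20 subunits. Without this library and Astrocytes replicate 1, 11 subunits were lower in every remaining glial library, beside 4097 of 15133 genes tested in that fit. With fewer libraries, and without the highest, that condition is easier to meet. Ndufs1, higher by 1.80 ± 0.41 (SE), had 0.938 CPM or less in every library.

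In the lipid list 8 of 15 were higher and 3 lower, beside 32.1% and 29.1% of all genes, and 7 and 1 in all 6 libraries, beside 21.3% and 20.3%. Fabp7, the brain fatty acid binding protein of radial glia, read 369.7, 809 and 600 CPM in astrocytes, 2458, 1570 and 1215 in OPC and 8.73, 2.84 and 4.85 in DRG (7.54 ± 0.57 (SE), adjusted p = 6.35e-06). Acsbg1, an acyl-CoA synthetase, read 645, 432 and 565 CPM in astrocytes, 61.6, 97.5 and 109 in OPC and 3.18, 1.37 and 3.98 in DRG (6.29 ± 0.45 (SE), adjusted p = 4.30e-06). Lrp4 and the lipase Lpl differed by 6.75 ± 0.67 and 3.53 ± 0.72 (SE; Lpl 4.49 without DRG replicate 1). The lipid carriers Apoe and Clu were high in astrocytes: Apoe was at 13550, 2242 and 3117 CPM there, 129, 73 and 245 in OPC and 176, 39 and 78.6 in DRG, and Clu was 3.76 in astrocytes and -5.12 in OPC.

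By level, the 8 genes at least 4-fold higher in each glial type with the most CPM were Ckb, Lrp1, Ccnd2, Ncan, Rab31, Igfbp3, Ptprz1 and Slc1a3. Ckb, brain creatine kinase, stood at 402, 749 and 795 CPM in DRG, 3509, 3817 and 3827 in astrocytes and 3805, 2665 and 4832 in OPC (2.53 ± 0.30 (SE), adjusted p = 9.24e-05). Lrp1 was at 1230, 1502 and 1437 CPM in astrocytes, 1395, 876 and 861 in OPC and 170.1, 112 and 156 in DRG (3.04 ± 0.25 (SE), adjusted p = 1.04e-05), a scavenger and lipoprotein receptor. Rab31, a trafficking GTPase, and Igfbp3, which binds insulin-like growth factors, differed by 4.74 ± 0.29 and 5.86 ± 0.78 (SE). Igfbp3 was low in Astrocytes replicate 1, at 184 CPM against 1783 and 1402 in the others.

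Their counterparts, at least 4-fold lower in each glial type with the most CPM in DRG, included Nefh, Nefm, Nefl, Ngfr, Tubb3, Map1b and Ywhag. Ywhag, an adaptor protein, was at 4001, 5315 and 6161 CPM in DRG, 247, 422 and 348 in astrocytes and 339.6, 399 and 466 in OPC (-3.81 ± 0.22 (SE), adjusted p = 1.47e-06).

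The glial types often differed in how far a shared gene lay from DRG. Of the 3163 shared higher genes 1483 (46.9%) also differed between OPC and astrocytes, 868 with OPC higher and 615 lower, and of the 3009 shared lower genes 1239 (41.2%) did. Over all genes tested this share was 51.8%. The 8 shared higher genes with a log2 difference of at least 3 and the least difference between the glial types were Ctdsp2, Wee1, Prex1, Smpd2, Mro, Wdr90, Zfp36l1 and Npas3. Npas3 read 116, 128 and 136 CPM in the astrocyte libraries, 151, 122 and 106 in the OPC libraries and 1.66, 1.07 and 1.37 in the DRG libraries (6.54 ± 0.25 (SE), adjusted p = 2.71e-07); this basic helix-loop-helix factor acts in neural progenitors. Zfp36l1, which destabilises mRNA in radial glia, was at 277, 159.7 and 158 CPM in astrocytes, 251, 171 and 169.9 in OPC and 4.4, 2.55 and 5.65 in DRG (5.56 ± 0.39 (SE), adjusted p = 4.02e-06). Prex1, an exchange factor for Rac, and the sphingomyelinase Smpd2 differed by 3.52 ± 0.27 and 3.70 ± 0.44 (SE; Smpd2 4.41 without DRG replicate 1), and Mro and Wdr90 by 3.90 ± 0.25 and 3.98 ± 0.26. They were named for this evenness.

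**Figure D5:**
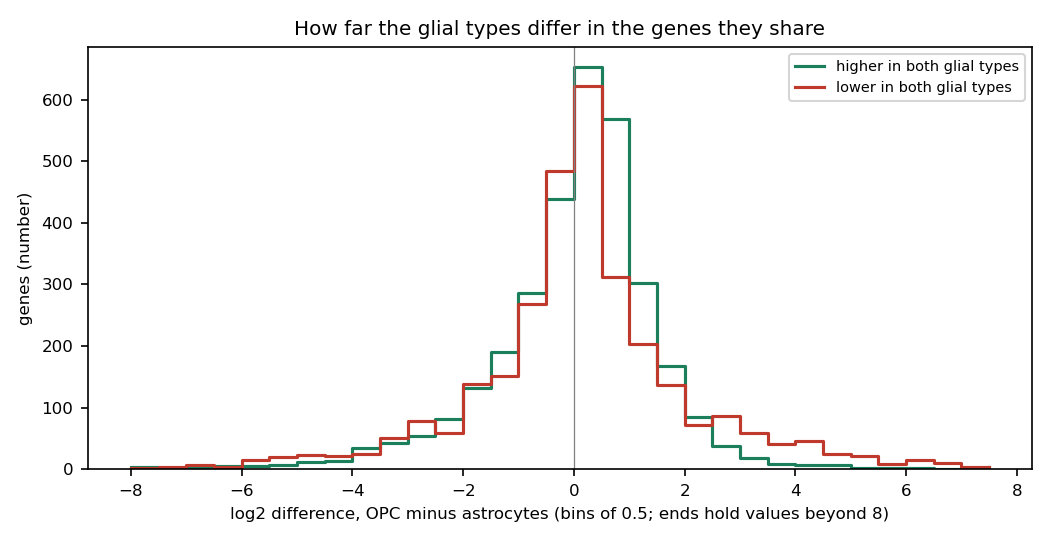
Number of genes by log2 difference of OPC minus astrocytes, in bins of 0.5, for the 3163 genes higher in both glial types (green) and the 3009 genes lower in both (red); the end bins hold values beyond 8. Both outlines peak near 0, and the red outline has the longer right tail, that is genes lower in both glia but less so in OPC.

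Known markers of 1 glial type passed on the mean without being shared. Gfap was at 2658, 2392 and 2955 CPM in astrocytes, 0.402, 0.203 and 0.65 in OPC and 2.27, 0.842 and 2.5 in DRG. Aqp4 was at 1836, 1242 and 1352 CPM in astrocytes, 2.82, 0.244 and 0.385 in OPC and 2.27, 0.821 and 2.92 in DRG. The connexin Gja1 was at 884, 550 and 693 CPM in astrocytes, 2.19, 0.977 and 1.18 in OPC and 6.57, 1.9 and 4.03 in DRG. In OPC their log2 differences from DRG were -2.16 (-2.86 without OPC replicate 3), -0.79 (-2.65 without OPC replicate 1, the OPC library with the most Aqp4) and -1.51. That of Gja1 no longer passed without DRG replicate 1 (-1.03, adjusted p = 0.0757) or OPC replicate 2 (-1.28, adjusted p = 0.0717). Pdgfra, the receptor that marks OPC, was 7.92 in OPC, while in astrocytes its 1.53 did not pass and was -0.52 without Astrocytes replicate 3. The glial mean moved from 4.37 to 3.44 for Aqp4 without OPC replicate 1 and from 4.72 to 3.70 for Pdgfra without Astrocytes replicate 3. Both comparisons share the DRG libraries. The glial markers S100b and Mbp were lower in both glial types than in the DRG cultures, as was the OPC marker Lhfpl3. S100b stood at 563, 639 and 922 CPM in DRG, 71.2, 26.4 and 53.2 in astrocytes and 31.1, 3.32 and 2.57 in OPC (-4.83 ± 0.73 (SE), adjusted p = 0.000389; -5.86 without OPC replicate 1). Mbp, from isoform-specific reads, was at 85.4, 99 and 66.3 CPM in DRG, 9.4, 2.11 and 2.35 in astrocytes and 40.6, 34.8 and 34.4 in OPC (-2.68 ± 0.42 (SE), adjusted p = 0.00049).

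Markers of other cells moved with some of these results. Of 14 microglial markers 12 were higher in the glia and 9 in all 6 libraries, beside 32.1% and 21.3% of all genes. The microglial markers summed to 3088, 526 and 488 CPM in astrocytes, 20.2, 67 and 234 in OPC and 22.1, 13.3 and 13 in DRG, highest in Astrocytes replicate 1. Csf1r was at 734, 136 and 118 CPM in astrocytes, 2.15, 8.3 and 17.7 in OPC and 1.73, 0.59 and 0.387 in DRG, and Cx3cr1 at 500.1, 74.9 and 80.1 CPM in astrocytes, 0.76, 2.38 and 9.21 in OPC and 0.304, 0.147 and 0.0775 in DRG. C1qa was at 569.6, 105 and 87.9 CPM in astrocytes, 4.85, 10.8 and 47.5 in OPC and 3.32, 0.59 and 0.671 in DRG, and Tyrobp differed by 6.63 ± 1.26 (SE). Leaving out 1 library moved Csf1r to 5.31, C1qa to 4.92, Tyrobp to 5.98 and Cx3cr1 to 6.71 without Astrocytes replicate 1, Csf1r to 6.81, C1qa to 6.85 and Tyrobp to 7.50 without DRG replicate 1 and C1qa to 4.74, Tyrobp to 5.79 and Cx3cr1 to 6.61 without OPC replicate 3. Apoe, which microglia also express, was likewise highest in Astrocytes replicate 1; the part of microglia in the lists was not tested. Ependymal markers summed to 1359, 200 and 541 CPM in astrocytes, 5.9, 4.7 and 4.69 in OPC and 42.7, 69.1 and 47.9 in DRG. Of 12 fibroblast and mural markers 8 were lower in the glia and 6 in all 6 libraries, beside 29.1% and 20.3% of all genes. These 12 summed to 1273, 8657 and 10030 CPM in astrocytes, 62, 115 and 253 in OPC and 2118, 2027 and 2253 in DRG.

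Of 11 Schwann and satellite glia markers tested, 3 were higher and 3 lower by the test. In all 6 glial libraries 2 were higher, Fabp7 of radial glia among them, and 3 lower, among them Erbb3 and Foxd3, beside 21.3% and 20.3% of all genes. The list summed to 220.8, 338.2 and 270.2 CPM in DRG, 695.5, 1153 and 984.5 in astrocytes and 3376, 2243 and 1927 in OPC, so its sum was higher in the glia. Foxd3, a neural crest factor, was at 2.44, 1.01 and 3 CPM in DRG, 0, 0.0712 and 0 in astrocytes and 0, 0 and 0 in OPC. Sox10 was at 9.24, 4.21 and 16.3 CPM in DRG. Like Foxd3 and Erbb3 it was lowest in DRG replicate 2 and highest in DRG replicate 3. S100b was lowest in DRG replicate 1, and Mbp was lowest in DRG replicate 3. The part of peripheral glia in the S100b, Mbp and Erbb3 results was not tested. Of 6 markers of central neurons tested, 2 were higher and 3 lower by the test, beside 32.1% and 29.1% of all genes. In all 6 libraries 2 (Gad1, given above, among them) were higher and 1 lower, beside 21.3% and 20.3%. The markers summed to 319.4, 337.9 and 251.5 CPM in DRG, 81.9, 26.1 and 24.3 in astrocytes and 67.6, 33.7 and 53.4 in OPC. The shared lower member Slc17a7, the vesicular glutamate transporter VGLUT1, was at 289.5, 293 and 204 CPM in DRG and at most 0.404 in any glial library.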

How the data were processed

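RNA-seq libraries of 3 cultures each of astrocytes, OPC and DRG neurons were analysed. The authors deposited raw counts of reads per RefSeq transcript accession, made with TopHat2 and HTSeq on mm10 per the submitters' processing notes; versions, annotation release, counting mode and strand setting are not given in the sources used here. Per the files' summary lines, reads that fit several features were set aside (22.0 to 24.7% of reads per library), so genes with several accessions hold isoform-specific reads only. Counts of accessions were summed to 24170 genes, without the summary lines.

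Genes passing filterByExpr (minimum count 10) were fitted over all 9 libraries with TMM scaling and the quasi-likelihood test of edgeR 4.0.16 (R 4.3.3, limma 3.58.1), with Benjamini-Hochberg adjustment over 14848 genes and calls at 0.05. The code was tested on simulated data. The contrast was the mean of the astrocyte and OPC estimates minus DRG. DESeq2 1.42.0 was an alternative, beside library size scaling, no filter, a replicate block, leaving out libraries, and other handling of accessions. Named genes were the 15 shared genes in each direction with the largest smaller glial difference (at least 10 CPM in each glial type or in DRG), the 8 most abundant at least 4-fold apart in each direction, the 8 higher ones (log2 of 3 or more, at least 20 CPM) that differed least between the glial types, and list members. The comparison, lists and members were chosen with earlier results of these data known. Intervals cover counting error only, and p-values measure the spread between these replicate cultures. Some genes that these rules name are not reported here.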

Additional observations from a re-analysis of the deposited data

Results flagged for a closer look

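43 of the genes named above differed between the 2 glial types by the test of OPC minus astrocytes itself (adjusted p under 0.05, edgeR quasi-likelihood test over all genes) and by at least 8-fold, so that their difference from the shared DRG libraries is unequal. The values are log2 OPC minus astrocytes. In 20 genes OPC were lower: Gfap (-12.65), Ccn2 (-11.65), Aqp4 (-10.33), Gja1 (-8.93), Clu (-8.88), Gpc4 (-6.51), Cx3cr1 (-5.73), Fgfr2 (-5.64), Yap1 (-5.52), Apoe (-5.40) and Csf1r (-5.14). Smaller differences in the same direction were those of Id3 (-4.61), Fgfr3 (-4.53), Bdnf (-4.38), Notch2 (-4.02), Id1 (-3.77), C1qa (-3.60), Tnc (-3.15), Otx1 (-3.11) and Scg2 (-3.04).

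In 23 genes OPC were higher. These were Sox10 (8.47), Ina (7.77), Cplx1 (6.51), Pdgfra (6.39), Elavl4 (6.36), Cspg4 (5.53), Crmp1 (5.42), Celf3 (5.21), Bmp7 (5.04), Dll1 (5.0), Hes5 (4.61) and Rbfox1 (4.55), followed by Cacna1b (4.48), Elavl3 (4.47), Snap25 (4.46), Chga (4.36), Ntrk3 (4.03), Bsn (4.03), Actl6b (3.71), Gap43 (3.68), Nova1 (3.51), Olig2 (3.42) and Kif21b (3.35). Of these 23, Olig2, Cspg4, Dll1, Bmp7 and Nova1 were shared higher genes, and Cplx1, Elavl4, Celf3, Rbfox1, Elavl3, Snap25, Bsn, Cacna1b, Actl6b, Chga and Gap43 were shared lower genes. The others were not shared.

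Leaving out 1 library moved some of these values by over 1.5 times. Without Astrocytes replicate 1, Apoe was -4.17, Csf1r -3.76, Cx3cr1 -4.24, Snap25 3.79, Cplx1 5.92, Crmp1 4.82 and Elavl4 8.14. Without Astrocytes replicate 2, Bdnf was -3.60, Cacna1b 5.47, Celf3 5.93, Cplx1 8.15, Crmp1 6.12 and Snap25 7.94. Without Astrocytes replicate 3, Ccn2 was -10.64, Pdgfra 8.45, Rbfox1 5.36 and Sox10 9.29. Without OPC replicate 3, Apoe was -6.13, Csf1r -6.12, Cx3cr1 -7.26, Gfap -13.26, Id1 -4.36 and Yap1 -6.15. Without OPC replicate 1, Aqp4 was -12.19 and Hes5 3.39. C1qa, at -5.18 without OPC replicate 3, no longer passed without Astrocytes replicate 1 (-2.20, adjusted p = 0.0808), OPC replicate 1 (-3.12, adjusted p = 0.06) or OPC replicate 2 (-3.27, adjusted p = 0.0809).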

How the results depend on the processing

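No alternative moved the counts of shared genes by 1.5 times, but these totals do not show that the same genes were called. Genes tested ran from 11573 with 1 accession to 19383 with no filter, and fewer libraries make the condition on libraries easier to meet. Library size scaling kept all 3163 higher and 2607 of the 3009 lower genes of the main fit. The fit without OPC replicate 3 kept 2801 higher and 3004 lower genes. There were 2897 higher and 3327 lower with DESeq2, 3812 higher and 2607 lower with library size scaling, 3227 higher and 3314 lower with no filter, 2462 higher and 2309 lower over genes with 1 accession, 3160 higher and 2999 lower with the accession of the most counts, and 3336 higher and 4097 lower without Astrocytes replicate 1 and OPC replicate 3. Leaving out 1 library gave 3028 to 3595 higher and 2950 to 3721 lower genes, and 1144 to 1814 higher genes that also differed between the glial types. The median log2 difference of all genes, 0.13, became 0.34 with library size, 0.01 with DESeq2 and -0.07 without those 2 libraries, so differences of that size have no fixed sign.

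Deviations from the mean of their type correlated at -0.0357 to 0.128 for same-numbered libraries and at -0.13 to 0.0777 for others. With 3 libraries a type, these values cannot exclude that cultures of 1 number were prepared together. With the replicate block, 3135 higher and 3007 lower genes passed, of which 3131 and 2995 had also passed without it.

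Of 3323 values of the 211 named genes under the alternatives, 3288 kept direction and the outcome of the test at 0.05. This count does not include whether all glial libraries stayed on the same side of DRG. Some of these genes were named for large differences in the main fit, which makes a change less likely. The 17 changes of sign were in 6 genes that had not passed. Dnmt1 was -0.08 to 0.64 leaving out 1 library and -0.02 without both libraries. Hes1 was 0.10 with library size and -0.42 to 0.02 leaving out 1 library. Rims2 was -0.11 with DESeq2, -0.16 to 0.11 leaving out 1 library and -0.15 without both libraries. Ntrk3 was 0.09 with library size, -0.35 to 0.29 leaving out 1 library and 1.67 with the accession of the most counts, where it passed (adjusted p = 0.00172). Id1 was -0.11 to 0.43 leaving out 1 library and -0.01 without both libraries. Eno1 was 0.08 with library size and -0.42 to 0.12 leaving out 1 library. The cause was not tested. Sox10 lost its call in 6 fits leaving out 1 library (1.06 to 1.56, adjusted p = 0.0518 to 0.138), and Scn2a, Vamp1, Clu and Ccn2 gained one in 12 alternatives. List counts without those 2 libraries were an alternative chosen after seeing the data. With 3 cultures a type, genes with few isoform-specific reads are the least certain.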
